A study of Arabidopsis thaliana with 2 samples.

Results

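Genes of the leaf cuticle were compared between wild type Arabidopsis thaliana (ecotype Columbia) and Atclb1-1, a line homozygous for a T-DNA insertion in AtCLB that the labels describe as loss of function. The 36 genes were taken by locus identifier from a deposited table of 33557 loci, and they cover wax, cutin, lipid export and their regulators. Leaves came from plants aged 2 weeks, grown with 16 h of light at 23 °C, and each genotype is represented by 1 RNA-seq library. Both groups share the ecotype, tissue and growth conditions, and no agent was applied. The labels give neither the number of plants per library nor the hour of harvest. The mutant group is a single insertion line with no second allele or complemented line.

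The cuticle is the lipid layer that seals the outer face of the epidermis and limits water loss. Its polymer, cutin, is made from oxidised fatty acids joined to glycerol, and its waxes are very long chain fatty acids turned into alkanes, alcohols, ketones and esters. Both are made in epidermal cells, pass through ABC transporters at the plasma membrane and are carried across the wall with the help of lipid transfer proteins. MYB and SHINE transcription factors switch these genes on, and in leaves they answer to drought, abscisic acid and light.

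Values are FPKM, fragments per kilobase of transcript scaled to the mapped fragments of the library. Differences are log2((Atclb1-1 FPKM + 1)/(wild type FPKM + 1)), which understates the difference of low genes, and folds are plain ratios of FPKM. With 1 library per genotype there is no replicate error and no test, so every value below describes these libraries. The spacing of low values put 1 fragment on 1 kb at 0.065 to 0.07 FPKM in wild type leaves and at 0.055 to 0.06 FPKM in Atclb1-1, the deeper library. AtCLB (AT3G61050) itself stood at 39.2 FPKM in wild type leaves and 13.5 FPKM in Atclb1-1, 34.5% of the wild type level, and the site of the insertion within the gene is not in the labels. The median difference was 0.21 over all 18171 loci that reached 1 FPKM in either library, so most loci were slightly higher in Atclb1-1. Of 6 clock genes 2 passed 2-fold in the higher and 3 in the lower direction, among them CCA1 at 7.39 and 162 FPKM and ELF4 at 343 and 4.95 FPKM. Over the 18171 loci the shares past 2-fold were 17.2% higher and 10.8% lower. The part of harvest time in the differences below was not tested.

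Several cutin genes, both acyl-CoA synthetases and part of the chain elongation machinery were lower in Atclb1-1, whereas the alkane gene CER3 was higher. The cutin genes past 2-fold were CYP86A2, GPAT4, CYP86A8 and GPAT8, of which CYP86A8 and GPAT8 reached 1 FPKM in wild type alone. The 5 measured regulators among the 36 lay within 2-fold. Of the 36 genes 29 reached 1 FPKM in at least 1 library. Among these 29, 9 were at least 2-fold lower, 1 was at least 2-fold higher and 19 lay within 2-fold. The same limits were passed by 10.8% of all such loci in the lower direction and by 17.2% in the higher. The lower cuticle genes made up 31.0% of the 29 and the higher one 3.45%. The median difference of the 29 was -0.37, and 22 of them had a value below 0.

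The filter admitted 4 genes, KCS5, CYP86A8, GPAT8 and BDG, through the wild type library alone, where they were high. Of the 25 genes that reached 1 FPKM in both libraries 6 passed 2-fold in the lower direction and 1 in the higher, and their median was -0.28. For all loci with that level in both libraries the shares were 8.90% lower and 14.6% higher, with a median of 0.20. With no filter the counts over all 36 were again 9 lower and 1 higher, beside 5.83% and 9.31% of all 33557 loci, and the median was -0.33. A 4-fold limit left 3 lower genes, KCS5, LACS1 and GPAT8, and no higher one, beside 2.64% and 5.29% of loci. With the median ratio of all loci set to 0, 11 genes were lower and 1 higher, beside 13.4% and 13.8% of loci. With the dependence on length and GC content taken out, 10 were lower and 1 higher, beside 13.7% and 13.1%. The 7 genes below 1 FPKM in both libraries were MAH1 and SHN1, listed at 0, and CYP86A4, CYP77A6, DCR, LTP2 and MYB106.

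**Figure D1:**
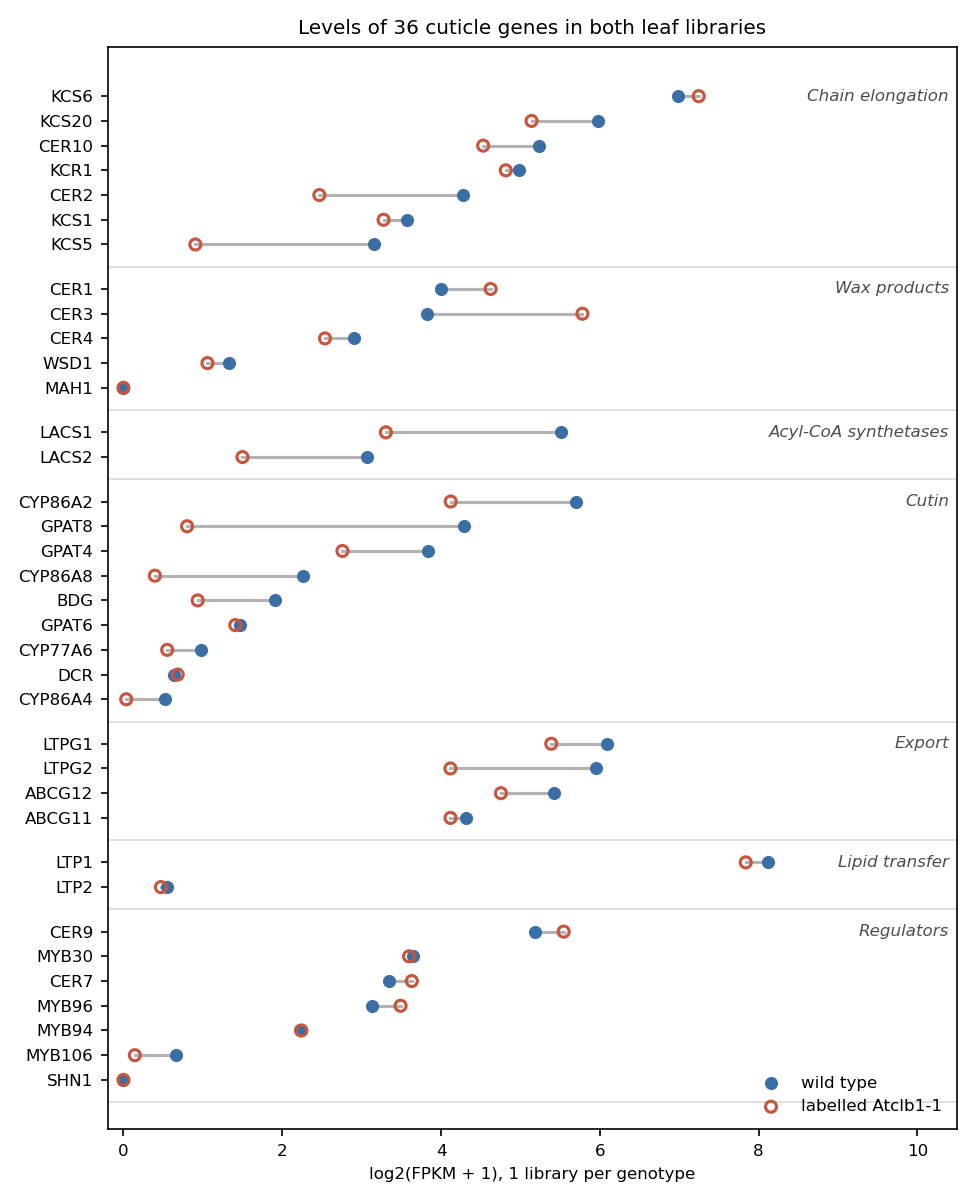
Level of each of the 36 genes as log2(FPKM + 1) in wild type (filled points) and in Atclb1-1 (open points), grouped by role and joined by a line. GPAT8, KCS5 and LACS1 have the longest lines toward lower values in Atclb1-1, CER3 has the longest toward higher values, and MAH1 and SHN1 sit at 0 in both.

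Summed over the 36 genes the level was 1010 FPKM in wild type leaves and 780.0 FPKM in Atclb1-1, a ratio of 0.772. Over all 33557 loci the ratio of the sums was 0.914, which is the background for each summed level here and below. LTP1 and KCS6 were the most abundant members in both libraries. The sum of the 9 cutin genes was 93.2 FPKM in wild type leaves and 26.9 FPKM in Atclb1-1, and that of both acyl-CoA synthetases 52.2 and 10.7 FPKM. The 5 genes of wax products summed to 36.2 and 83.6 FPKM, of which CER3 gave 13.1 and 54.0 FPKM and CER1 15.0 and 23.7 FPKM, and the other members were lower or at 0. These are bulk leaves, in which fewer epidermal cells and less RNA per epidermal cell cannot be told apart.

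Wax synthesis starts with the fatty acid elongase of the endoplasmic reticulum, whose condensing enzyme, a 3-ketoacyl-CoA synthase (KCS), sets the chain length. KCS6, also called CER6, is the main condensing enzyme of stem and leaf wax, and it stood at 126 FPKM in wild type leaves and 151 FPKM in Atclb1-1. Its close relative KCS5, also called CER60, was at 7.88 and 0.874 FPKM, 9.02-fold lower. KCS5 thus differed where KCS6 did not reach 2-fold, although their coding sequences shared 80.5% of aligned positions. The longest stretch identical between them was 23 nt, and the labels give no read length.

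The other condensing enzymes were lower by less. KCS20, which acts in both cuticular wax and root suberin, stood at 62.2 and 34.3 FPKM, a difference of -0.84. KCS1, a broad-range enzyme, was at 10.9 and 8.69 FPKM. Of these genes KCS20 lay just short of 2-fold and KCS1 well inside it.

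The reduction steps of the elongase are shared by all chain lengths. KCR1, the 3-ketoacyl-CoA reductase, stood at 30.7 FPKM in wild type leaves and 27.2 FPKM in Atclb1-1. CER10, the enoyl-CoA reductase that closes each round, was at 36.8 and 22.1 FPKM, a difference of -0.71. Neither reached 2-fold, and CER10 overlaps the neighbouring locus AT3G55350.

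CER2, a protein of the BAHD acyltransferase family that lets the elongase make its longest wax chains, was at 18.4 FPKM in wild type leaves and 4.53 FPKM in Atclb1-1, 4.07-fold lower. It overlaps AT4G07275 and AT4G24520, so its value is uncertain where reads were not assigned by strand: the labels name a directional library kit but not how strand was counted. The CER2 relatives CER26 (AT4G13840) and CER26-LIKE (AT3G23840), which are not among the 36 and overlap no annotated gene, were lower too. CER26 stood at 98.7 and 18.2 FPKM and CER26-LIKE at 21.4 and 1.45 FPKM, 5.43-fold and 14.8-fold lower. CER2, CER26 and CER26-LIKE were therefore each more than 4-fold lower in FPKM. Among the 7 elongation genes KCS5 and CER2 passed 2-fold, both lower (28.6%, beside 10.8% of all loci), and the median was -0.71. KCS5 was admitted by the filter through wild type alone, where it was high, so the count is a description only.

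Elongated chains leave by an alkane branch or an alcohol branch. CER1 and CER3 form the complex that turns very long chain acyl-CoAs into alkanes, the main wax class of Arabidopsis leaves. CER3 (AT5G57800, TAIR10.1 chromosome 5, 23420184 to 23424117, plus strand) stood at 13.1 FPKM in wild type leaves and 54.0 FPKM in Atclb1-1, 4.11-fold higher, a difference of 1.96. CER1, its partner, was at 15.0 and 23.7 FPKM, 1.58-fold higher and within 2-fold. The CER1 difference of 0.62 became 0.43 with the median ratio of all loci set to 0. With the dependence on length and GC content taken out it was 0.20. In wild type both genes had similar levels per length, and in Atclb1-1 the level of CER3 was above that of CER1.

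The alcohol branch did not share this direction. CER4, the fatty acyl-CoA reductase that makes primary alcohols, stood at 6.52 FPKM in wild type leaves and 4.81 FPKM in Atclb1-1. WSD1, which joins alcohols and fatty acids into wax esters, was at 1.51 and 1.08 FPKM. Both measured genes of the alcohol branch lay slightly lower in Atclb1-1 and within 2-fold. On the alkane branch MAH1, the cytochrome P450 that oxidises alkanes to secondary alcohols and ketones mostly in stems, was listed at 0 in both libraries.

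Fatty acids must be activated to CoA thioesters before elongation or use in cutin. LACS1, also called CER8 (AT2G47240, TAIR10.1 chromosome 2, 19392497 to 19397907, plus strand), acts on very long chain and cutin acids, and it stood at 44.8 FPKM in wild type leaves and 8.89 FPKM in Atclb1-1, 5.04-fold lower. LACS2, which serves cutin, was at 7.35 and 1.83 FPKM, 4.02-fold lower. Both synthetases were thus low in the Atclb1-1 library, with differences of -2.21 and -1.56.

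Cutin monomers are made by cytochrome P450 enzymes of the CYP86A family, which oxidise the end of the chain, and by glycerol-3-phosphate acyltransferases (GPAT), which attach the acids to glycerol. GPAT8 (AT4G00400, TAIR10.1 chromosome 4, 173953 to 176870, minus strand) was at 18.6 FPKM in wild type leaves and 0.743 FPKM in Atclb1-1. It was 25.1-fold lower as a plain ratio of FPKM, and its difference with the pseudocount, -3.49, was the largest among the 29 genes. The FPKM values correspond to roughly 531 to 572 fragments in wild type and 25 to 27 in Atclb1-1 for its 1998-nt transcript. GPAT4, known to act redundantly with GPAT8 in leaf and stem cutin, was at 13.3 and 5.77 FPKM, 2.30-fold lower. GPAT4 and GPAT8 shared 82.7% of aligned coding positions, with an identical stretch of at most 35 nt. GPAT6, which serves cutin of flowers, was low in both libraries at 1.76 and 1.65 FPKM.

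CYP86A2, also called ATT1, was the most abundant of its family at 51.0 FPKM in wild type leaves and 16.4 FPKM in Atclb1-1, 3.11-fold lower. It overlaps AT4G00370 and AT4G03585. CYP86A8, also called LACERATA, was at 3.78 and 0.316 FPKM, 12.0-fold lower, the second value resting on roughly 14 to 15 fragments. CYP86A4 was at 0.443 and 0.0244 FPKM, the latter worth about 1 fragment, and CYP77A6, which adds a mid-chain hydroxyl group in flower cutin, at 0.976 and 0.465 FPKM. Both of the CYP86A genes at 1 FPKM or more were therefore lower, and the remaining P450 genes were too low to describe.

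The assembly genes were scarce in these leaves. BDG, an extracellular hydrolase of the epidermal wall needed for an intact cuticle, stood at 2.76 FPKM in wild type leaves and 0.912 FPKM in Atclb1-1. Its ratio was 3.03-fold lower, but its difference of -0.98 with the pseudocount lay just short of the 2-fold limit. BDG overlaps AT1G64660. DCR, an acyltransferase of cutin assembly, was at 0.558 and 0.605 FPKM. Of the 9 cutin genes 6 reached 1 FPKM in a library, 4 of these were at least 2-fold lower and none higher, and all 6 were below 0 with a median of -1.33. CYP86A8, GPAT8 and BDG were among the 6 through wild type alone, so the count and median are descriptions.

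**Figure D2:**
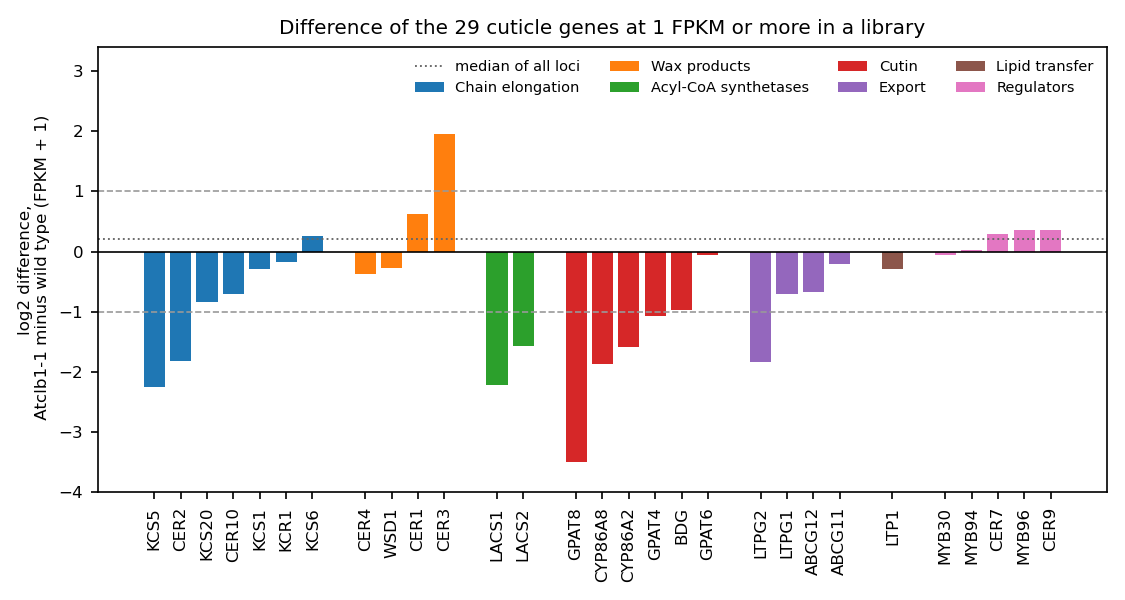
Difference of each of the 29 genes at 1 FPKM or more in a library, as bars in log2 units and coloured by role, with dashed lines at 2-fold and a dotted line at the median of all loci. GPAT8 reaches -3.49 and CER3 1.96, and the 5 regulators lie between -0.05 and 0.36.

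Export genes lay below the typical locus. ABCG12, also called CER5, and ABCG11 are ABC transporters that move wax, and in the case of ABCG11 also cutin precursors, out of epidermal cells. ABCG12 stood at 42.0 FPKM in wild type leaves and 26.0 FPKM in Atclb1-1, and ABCG11 at 19.0 and 16.4 FPKM. Neither reached 2-fold, and ABCG11 overlaps AT1G05337 and AT1G17850.

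LTPG1 and LTPG2 are lipid transfer proteins held on the cell surface by a glycosylphosphatidylinositol anchor, and both contribute to alkane export. LTPG2 was at 61.1 FPKM in wild type leaves and 16.4 FPKM in Atclb1-1, 3.73-fold lower. LTPG1 was at 67.4 and 40.9 FPKM, 1.65-fold lower, and overlaps AT1G27960. The anchored proteins thus had similar levels in wild type and stood further apart in Atclb1-1. Their coding sequences shared 47.0% of aligned positions, with identical stretches of at most 7 nt.

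LTP1 and LTP2 encode small secreted lipid transfer proteins and lie side by side on chromosome 2. LTP1 was the most abundant of the 36 genes, at 278 FPKM in wild type leaves and 228 FPKM in Atclb1-1. LTP2 was at 0.468 and 0.387 FPKM, worth roughly 7 to 8 fragments in each library, although the coding sequences shared 82.4% of aligned positions. In both libraries nearly all of this signal was assigned to LTP1.

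The 5 measured regulators among the 36 each lay within 2-fold between the libraries. MYB96 and MYB30, activators of wax genes under drought and during defence, stood at 7.74 and 11.5 FPKM in the wild type library, against 10.2 and 11.1 FPKM in Atclb1-1. MYB94, which acts with MYB96, was at 3.67 and 3.73 FPKM. None of these MYB genes differed by 2-fold.

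CER7, an exosome exoribonuclease subunit known to be needed for CER3 expression in stems, was at 9.14 FPKM in wild type leaves and 11.4 FPKM in Atclb1-1. CER9, an E3 ubiquitin ligase whose loss is known to raise cuticle lipids, was at 35.3 and 45.7 FPKM. SHN1, an activator of cutin genes, was listed at 0 in both libraries, and MYB106, which acts with it and in trichomes and overlaps AT3G01142, was at 0.583 and 0.104 FPKM. CER7 overlaps AT3G60510. The 5 measured regulators had a median of 0.29, which became 0.10 with the median ratio of all loci set to 0 and -0.16 with the dependence on length and GC content taken out. No direction is given for this group for that reason.

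The wider pathway was read from 4 further lists of 47 genes, of which 41 reached 1 FPKM in a library. Of these 41, 17 (41.5%) passed 2-fold in the lower and 5 (12.2%) in the higher direction, and their median was -0.52. The lower genes HTH, LTL1, AT4G24140, ABCG13 and SHN3 were admitted by the filter through wild type alone, where they were high. The lower share and the median are therefore descriptions only. Over all loci the shares were 10.8% and 17.2% and the median 0.21, which is the background for each list below. The lists were chosen with earlier results of these data known, and they were described in the same way as the 36.

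Of 6 further cutin and surface genes that reached 1 FPKM in a library, 4 passed 2-fold, all lower. HTH, an oxidoreductase of cutin monomer synthesis, stood at 4.72 FPKM in wild type leaves and 0.934 FPKM in Atclb1-1. ABCG13, a transporter known from flower cutin, was at 2.28 and 0.0230 FPKM, and AT4G24140, an alpha/beta hydrolase, at 2.20 and 0.176 FPKM. LTL1, a lipase-like gene, was at 2.13 FPKM in wild type leaves and listed at 0 in Atclb1-1. All 4 had low levels and were admitted by the filter through wild type alone, where they were high, so their count is a description only. The genes at 1 FPKM or more in both libraries, CYP77A4 at 1.84 and 1.26 FPKM and ABCG32 at 17.3 and 9.01 FPKM, lay within 2-fold.

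Of 18 other wax and elongation genes 3 (16.7%) passed 2-fold in the lower and 2 (11.1%) in the higher direction, around a median of 0.01. These shares are near those of all loci. The lower genes were CER26, CER26-LIKE and KCS8, a condensing enzyme at 14.4 FPKM in wild type leaves and 1.09 FPKM in Atclb1-1. The higher genes were KCS2, which works with KCS20 in root suberin, at 1.06 and 9.88 FPKM, and LACS3 at 7.24 and 16.0 FPKM. KCS2 overlaps AT1G04210 and AT1G04247. KCS2 and KCS20 thus differed in opposite directions, although KCS20 did not reach 2-fold. LACS3 was higher by 1.05, and it lay inside 2-fold with the median ratio of all loci set to 0 or with the dependence on length and GC content taken out.

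Lipid transfer genes were split, with 3 of 6 measured genes past 2-fold in each direction and LTP12 listed at 0. LTP3, known to be induced by drought and abscisic acid, stood at 5.38 FPKM in wild type leaves and 157 FPKM in Atclb1-1, 29.3-fold higher. Its neighbour LTP4 was at 2.67 and 24.3 FPKM, and LTPG5 (AT3G22600), an anchored protein, at 47.8 and 256 FPKM. LTP5 was lower at 396 and 186 FPKM, LTP6 at 4.25 and 1.15 FPKM, and LTPG6 (AT1G55260) at 15.0 and 5.32 FPKM. LTP5 had the highest wild type value and LTPG5 the highest Atclb1-1 value among LTP1, LTPG1, LTPG2 and these genes. LTP5 came within 2-fold when both libraries were scaled to the same nuclear total.

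Among 11 other measured regulators 7 passed 2-fold, all lower, and the median was -1.11. SHN3, a relative of SHN1, was admitted through wild type alone, at 6.83 FPKM there and 0.0627 FPKM in Atclb1-1. MYB16, a relative of MYB106 that activates cutin and wax genes in leaves, was at 17.1 and 3.66 FPKM. DEWAX (AT5G61590), an ERF repressor of wax genes that accumulates in the dark, was at 124 and 44.9 FPKM, and the ERF gene AT5G07580, which overlaps AT5G07590, at 86.6 and 20.5 FPKM. The activator MYB16 and the repressor DEWAX were thus lower side by side.

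The remaining lower regulators were homeodomain factors of the outer cell layer. HDG1 was at 11.4 FPKM in wild type leaves and 4.11 FPKM in Atclb1-1, PDF2 at 17.2 and 7.46 FPKM, and ATML1 at 8.70 and 3.64 FPKM. ATML1 and PDF2 also stand in the epidermis list. ATML1 came within 2-fold when both libraries were scaled to the same nuclear total.

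Markers of the epidermis were lower, as were several cutin genes, but ATML1, PDF2 and KCS10 are themselves in the cuticle lists above. All 4 epidermis genes were below 0 and 3 of them passed 2-fold, around a median of -1.09 and with summed levels of 79.2 FPKM in wild type leaves and 39.4 FPKM in Atclb1-1. PDF1, a proline-rich protein of the young epidermis, was admitted through wild type alone, at 4.39 FPKM there and listed at 0 in Atclb1-1, and KCS10 (FIDDLEHEAD) was at 48.8 and 28.3 FPKM. Of 4 stomatal lineage genes 3 were at least 2-fold lower, with summed levels of 184 and 59.0 FPKM. AT1G22690, which overlaps AT1G22700, carried most of that sum at 144 and 31.8 FPKM. MYB60 was at 18.0 and 7.71 FPKM, and EPF1, admitted through wild type alone, was at 6.76 and 0.340 FPKM. The fourth gene, FMA, was within 2-fold at 15.5 and 19.1 FPKM. Of 3 trichome genes MYB0 (GL1) was at 0 in both libraries, GL2 stood at 1.11 and 1.46 FPKM and GL3 at 0.201 and 1.41 FPKM. GL2 overlaps AT1G09927 and AT1G79850, and GL3 overlaps AT5G06145. GL3, at a difference of 1.00, just reached 2-fold and lay inside it, at 0.89 and 0.68, with the median ratio of all loci set to 0 and with the dependence on length and GC content taken out. The 4 mesophyll genes had a median of -0.89, with 2 at least 2-fold lower and summed levels of 19804 and 13959 FPKM. The lower genes were LHCB3 at 9352 and 4180 FPKM and RBCS3B at 2894 and 1182 FPKM. CAB2 lay within 2-fold at 3914 and 2559 FPKM. RCA, also within 2-fold, went the other way at 3643 and 6038 FPKM. LHCB3 overlaps AT5G54280 and RCA overlaps AT2G39725. The part of cell type shares in the differences of the cuticle genes was not tested.

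Transcripts of genes for suberin, the related polymer of roots and wounds, were scarce in these leaves. Of 12 suberin genes 3 reached 1 FPKM in a library and none of them passed the 2-fold limit with the pseudocount. FAR1, which makes suberin alcohols, was 6.94-fold higher as a plain ratio of low values, at 0.183 FPKM in wild type leaves and 1.27 FPKM in Atclb1-1, whereas FAR5 stood at 1.14 and 1.94 FPKM and ABCG20 at 2.66 and 3.47 FPKM. Of the others, 4 were listed at 0 in both libraries.

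**Figure D3:**
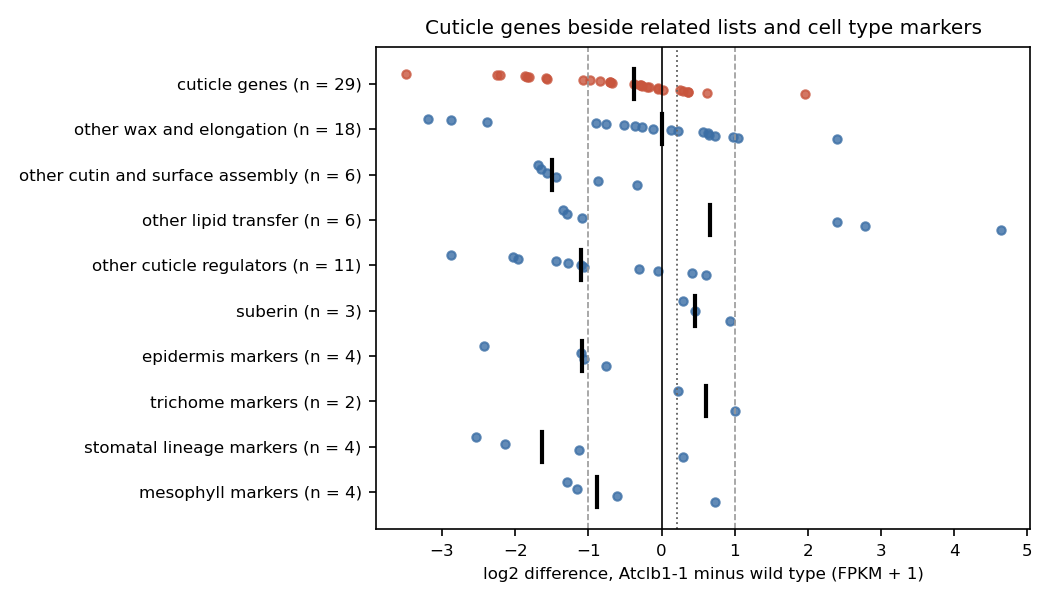
Difference of single genes (points) and list medians (black bars) in log2 units for the 29 measured cuticle genes and for 9 related lists, with dashed lines at 2-fold and a dotted line at the median of all loci. The medians of the other regulators and of the epidermis and stomatal lineage markers lie at or below -1.09, and the lipid transfer genes form separate higher and lower groups.

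The 250 bases before the annotated start of each gene were searched on both strands, with sequences from the TAIR10.1 RefSeq genome. The motifs were the L1 box of epidermal homeodomain factors (TAAATGCA or TAAATGTA), the GCC box of ERF factors (GCCGCC), the MYB recognition element (ANCNANC, with A or C at the second and sixth letter and A or T at the fourth), the evening element (AAAATATCT), the CCA1-binding site (AAAAATCT), the G-box (CACGTG) and the core of the abscisic acid element (ACGTG), which lies within the G-box. All 36 genes had a window. A match describes letters only, and the absence of one says nothing of the factor.

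The MYB element was found in 17 of the 36 windows (47.2%), against 30.3% of all 27443 windows of protein-coding genes. It was present in 5 of the 9 lower genes (55.6%). The L1 box lay in 3 windows (8.33%), those of ABCG11, MYB96 and MYB94, against 4.49% of all windows, and in none of the 9 lower genes. The CCA1-binding site lay in 4 windows (11.1%), of CER10, CER3, CYP86A2 and LTPG2, against 6.69%, and in 2 of the 9 lower genes (22.2%). The evening element lay only in the window of CER1, against 2.36% of all windows. The abscisic acid core was found in 9 windows (25.0%, against 22.9%) and in 2 of the 9 lower genes (22.2%). The G-box lay in no window (against 6.49%) and the GCC box in that of GPAT6 (against 1.87%).

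Windows are shown for the genes with the highest and the lowest difference, CER3 and GPAT8, for CER1 as the partner of CER3, for the lower genes LACS2 and LTPG2 and for ABCG11, which holds both L1 boxes and MYB elements. They read 5′ to 3′ on the strand of the gene and end at the base before its start. Capitals mark the L1 box, MYB element, evening element and CCA1-binding site. None touches another annotated gene, and positions are chr5:23419934-23420183 for CER3, chr1:418166-418415 for CER1, chr4:176871-177120 (minus strand) for GPAT8, chr1:18290692-18290941 for LACS2, chr3:15617310-15617559 (minus strand) for LTPG2 and chr1:6142152-6142401 for ABCG11.
CER3: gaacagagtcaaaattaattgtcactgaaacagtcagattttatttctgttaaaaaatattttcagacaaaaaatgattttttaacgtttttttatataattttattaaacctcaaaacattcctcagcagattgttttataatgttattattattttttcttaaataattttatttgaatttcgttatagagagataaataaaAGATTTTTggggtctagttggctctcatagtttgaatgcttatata
CER1: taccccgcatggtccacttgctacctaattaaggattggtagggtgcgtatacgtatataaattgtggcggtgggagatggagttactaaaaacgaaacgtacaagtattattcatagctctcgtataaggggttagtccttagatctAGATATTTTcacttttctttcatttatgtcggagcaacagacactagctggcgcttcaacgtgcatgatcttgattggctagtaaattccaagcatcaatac
GPAT8: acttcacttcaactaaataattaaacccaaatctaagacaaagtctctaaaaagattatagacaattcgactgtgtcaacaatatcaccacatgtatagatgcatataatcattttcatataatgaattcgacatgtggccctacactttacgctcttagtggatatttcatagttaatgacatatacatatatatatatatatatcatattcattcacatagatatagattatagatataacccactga
LACS2: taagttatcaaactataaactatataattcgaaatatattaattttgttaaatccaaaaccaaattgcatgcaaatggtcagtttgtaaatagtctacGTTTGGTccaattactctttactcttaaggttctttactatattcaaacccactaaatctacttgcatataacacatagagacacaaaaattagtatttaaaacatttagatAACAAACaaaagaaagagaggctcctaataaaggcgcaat
LTPG2: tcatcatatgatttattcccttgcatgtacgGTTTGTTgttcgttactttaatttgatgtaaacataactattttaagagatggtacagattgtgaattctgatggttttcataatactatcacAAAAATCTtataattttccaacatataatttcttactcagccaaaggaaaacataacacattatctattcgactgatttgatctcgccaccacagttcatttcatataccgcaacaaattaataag
ABCG11: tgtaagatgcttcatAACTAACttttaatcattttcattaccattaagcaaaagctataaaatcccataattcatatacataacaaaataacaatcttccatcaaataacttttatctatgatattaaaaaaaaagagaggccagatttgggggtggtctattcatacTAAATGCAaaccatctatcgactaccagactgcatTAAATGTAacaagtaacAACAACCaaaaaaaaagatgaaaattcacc

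The GPAT8 window, of the gene with the lowest difference, held none of the marked motifs. CER3 held a CCA1-binding site on the reverse strand at positions -46 to -39 from the start, and CER1 an evening element on the reverse strand at -102 to -94. LACS2 held 2 MYB elements. LTPG2 held a MYB element and a CCA1-binding site, and ABCG11 held 2 L1 boxes and 2 MYB elements.

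**Figure D4:**
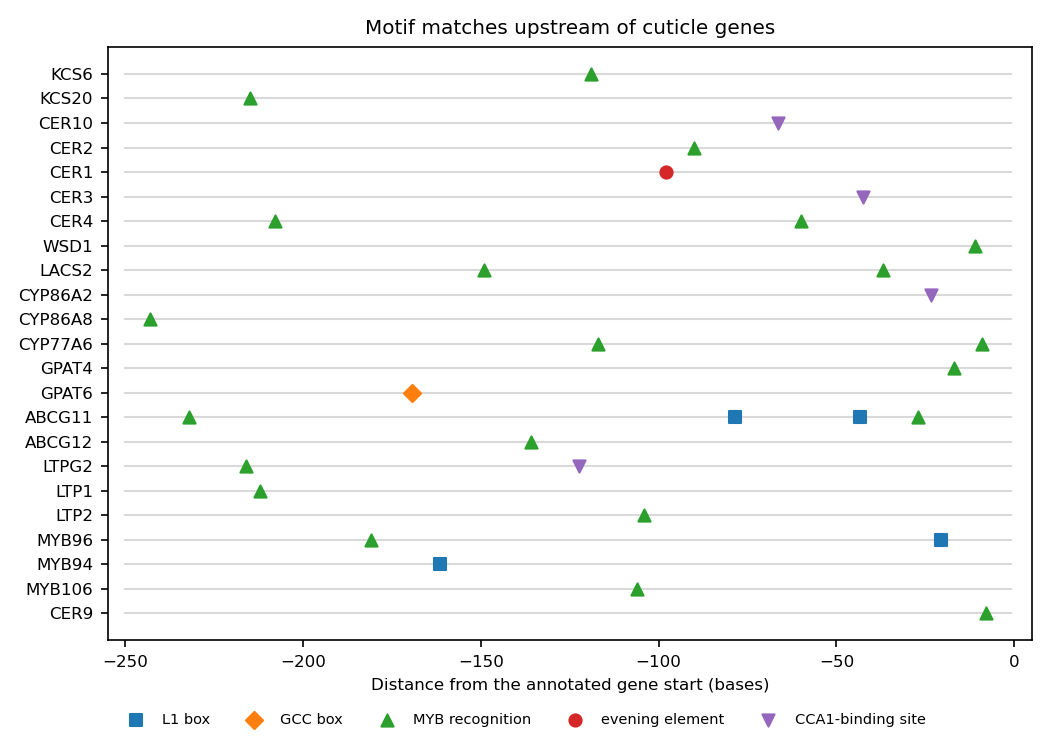
Position of motif matches in the 250 bases before the annotated start, with 1 line per gene for the 23 genes that hold at least 1 of the 5 plotted motifs and the distance from the start in bases on the horizontal axis. MYB elements spread over the whole window, and the L1 boxes of ABCG11 lie at positions -82 to -75 and -47 to -40.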

How the data were processed

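Leaf RNA of both genotypes was sequenced, with 1 library each. The authors deposited FPKM per locus, named so per the file headers. The tools were TopHat 1.3.2 and Cuffdiff and the build TAIR10, per the submitters' processing notes. A directional kit was used, per the labels' protocols, which do not say whether counting used strand. Because FPKM is relative to a library's total, abundant loci can shift the rest. Of the 36 genes 8 overlap another annotated gene.

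Genotypes were taken from the labels. From the deposited FPKM, log2 differences and fold ratios were computed with a pseudocount of 1 (none for ratios), a filter of 1 FPKM in at least 1 library and a 2-fold limit. No test was possible, and read counts were not recovered. Approximate fragments came from the spacing of low values, the FPKM that 1 read gives on 1 kb, 0.065 to 0.07 in wild type and 0.055 to 0.06 in Atclb1-1, and carry no interval. Names, lengths and sequences came from the TAIR10.1 RefSeq annotation, which matched 32810 of 33557 identifiers and all 36 genes. Close pairs were compared by global alignment of coding sequences (Biopython 1.88) in place of proteins. Tables were made with Python 3.11.15, pandas 2.3.3 and NumPy 2.4.6, and the computations were tested on simulated data. Every gene of the 36 is accounted for. Of the 4 further cuticle lists, genes at least 2-fold apart were named. LTP12, CYP77A4, ABCG32 and the suberin, cell type marker and clock genes given were chosen after their values were seen. The members and lists were chosen with earlier results of these data known.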

Additional observations from a re-analysis of the deposited data

How the results depend on the processing

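The number of cuticle genes at least 2-fold lower, 9 as reported, was between 6 (pseudocount 5) and 11 (median ratio of all loci set to 0) under the alternatives that kept the 2-fold limit, and the number higher was 1 in each. At a 4-fold limit 3 genes (KCS5, LACS1 and GPAT8) were lower and 0 higher. GPAT4, LACS2 and CYP86A8 lay within 2-fold with a pseudocount of 5, and GPAT4 also with the same nuclear total. KCS20 passed 2-fold under median scaling (median ratio 0) and trend removal, and BDG under median scaling and a pseudocount of 0.1. The median of the cuticle genes, -0.37, became -0.54 under median scaling, -0.52 with a filter at 5 FPKM, -0.60 under removal of the trend with length and GC, and -0.67 as a mean, and the cause of these shifts was not tested. It lay within 0.1 of the reported value under the other alternatives. Of 198 recomputed gene values 190 stayed on their side of 2-fold, 8 crossed it and 0 of those past it changed sign. Among the 29 genes 5 changed sign between scalings (KCS6, GPAT6, MYB30, MYB94 and CER9), none of them 2-fold apart. Setting the median ratio to 0 took 0.21 off the log2 ratio of FPKM, and less off differences of low genes, which carry the pseudocount. No paired analysis was possible because each genotype has 1 library. Values below 1 FPKM rest on few fragments.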
